A study of Mus musculus with 12 samples.

Results

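The genes of the proteasome were followed in peritoneal macrophages of wild-type C57BL/6 mice on 12 single-colour Agilent arrays. Members were the genes whose RefSeq symbol begins with Psma to Psmg and a digit. Of 57 such symbols 50 had a probe, and 48 were kept because in 1 group or more all 4 arrays had a probe well above background, among 13168 genes kept in all. The 48 comprised 5 interferon-inducible subunits (Psmb8, Psmb9, Psmb10, Psme1 and Psme2), 31 constitutive subunits of the core particle and its cap, 7 assembly chaperones and 3 other regulators. Psmc3ip and Psme3ip1 bear matching symbols without being subunits. Psma8, a testis form of an alpha subunit, was well above background on 3 of 4 control arrays and on none of the others, and Psmb11, the thymus catalytic subunit, on none, so neither was kept. The faintest gene kept, Psmc3ip, was above background on all 12 arrays. No probe carried the name of Psme2b or of 6 pseudogenes, Psma5-ps, Psmb5-ps, Psmb6-ps, Psmb6-ps2, Psmb7-ps1 and Psmb7-ps2.

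Macrophages labelled LPS_IFNg_emodin had received lipopolysaccharide (LPS, 100 ng/ml), interferon gamma (IFNg, 20 ng/ml) and emodin (50 μM), a plant anthraquinone, for 20 h. The LPS_IFNg cells had the same without emodin, and the control cells had vehicle, with 4 arrays in each group. All were plated adherent cells that had been held in serum-free medium before treatment, and the design text calls the arrays of a group biological replicates. No label links arrays to single animals, so the spread behind the p-values is that between arrays and may be technical in part. Mice of both treated groups were labelled 9 weeks old and female. Controls were labelled 8 weeks old, with replicates 1 and 2 female and 3 and 4 male. The tissue label names macrophages whereas the design text names PMN. Of 11 macrophage markers with a probe, 10 were above background on all LPS_IFNg_emodin arrays and 11 on all LPS_IFNg and all control arrays. Of 10 neutrophil markers with a probe, 5 were above background on all LPS_IFNg_emodin arrays, 4 on all LPS_IFNg arrays and 6 on all control arrays.

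The proteasome is a barrel of alpha and beta rings that cuts ubiquitin-tagged proteins into peptides, with a cap of ATPases and non-ATPase subunits that recognises, unfolds and feeds the substrates. In cells exposed to interferon gamma the catalytic beta subunits Psmb5, Psmb6 and Psmb7 are replaced in newly built barrels by Psmb8, Psmb9 and Psmb10, which gives the immunoproteasome, and Psme1 with Psme2 forms an alternative activator ring. The peptides supply antigen presentation by MHC class I, and macrophages are well known for this switch.

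Genomic sequence upstream of the catalytic genes is shown because the inducible and the constitutive member of each pair differed in what the arrays recorded. Each line gives the 250 bases before the RefSeq start site, 5′ to 3′ on the gene's own strand in GRCm38.p6, and capitals mark matches to any of the 5 motifs searched. The windows are chr17:34197945-34198194 on the plus strand for Psmb8, chr17:34187331-34187580 on the minus strand for Psmb9, chr8:105938393-105938642 on the minus strand for Psmb10, chr14:54617996-54618245 on the minus strand for Psmb5 and chr11:70525107-70525356 on the plus strand for Psmb6.
Psmb8: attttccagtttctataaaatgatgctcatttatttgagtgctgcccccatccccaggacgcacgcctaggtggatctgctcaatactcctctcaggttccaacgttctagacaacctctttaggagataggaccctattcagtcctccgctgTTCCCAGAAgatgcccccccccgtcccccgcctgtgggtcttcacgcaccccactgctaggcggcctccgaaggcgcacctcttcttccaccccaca
Psmb9: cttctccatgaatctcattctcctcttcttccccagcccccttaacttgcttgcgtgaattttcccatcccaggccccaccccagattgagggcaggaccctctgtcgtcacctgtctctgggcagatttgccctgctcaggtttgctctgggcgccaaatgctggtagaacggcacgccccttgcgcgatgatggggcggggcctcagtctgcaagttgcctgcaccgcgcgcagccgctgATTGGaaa
Psmb10: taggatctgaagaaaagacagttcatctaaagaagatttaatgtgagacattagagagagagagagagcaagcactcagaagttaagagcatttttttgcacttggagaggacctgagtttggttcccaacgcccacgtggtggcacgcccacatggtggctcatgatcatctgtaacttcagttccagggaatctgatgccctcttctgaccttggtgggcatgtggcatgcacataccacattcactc
Psmb5: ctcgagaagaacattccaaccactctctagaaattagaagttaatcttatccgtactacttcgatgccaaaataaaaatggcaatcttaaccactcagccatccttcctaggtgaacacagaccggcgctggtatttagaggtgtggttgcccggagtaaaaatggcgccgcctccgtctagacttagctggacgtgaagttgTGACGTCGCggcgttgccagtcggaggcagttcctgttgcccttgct
Psmb6: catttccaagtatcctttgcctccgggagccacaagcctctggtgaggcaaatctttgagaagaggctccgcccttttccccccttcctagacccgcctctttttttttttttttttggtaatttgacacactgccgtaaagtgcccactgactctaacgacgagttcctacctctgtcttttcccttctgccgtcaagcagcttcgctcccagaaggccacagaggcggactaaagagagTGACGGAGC

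The motifs were searched on both strands with N as any base. The STAT motif TTCNNNGAA lay in 1 of the 5 inducible genes, at bases -97 to -89 of Psmb8, against 0 of 25 constitutive genes with a window and 8.13% of 27025 RefSeq genes. The interferon-response motif, GAAA and again GAAA with 2 bases of any kind between, lay in 0 of 5 inducible and 2 of 25 constitutive genes, Psmb3 and Psmd4, against 3.46% of all genes. The kappa B motif, GGG and TTTCC with 2 bases of any kind between, lay in none of either group, against 1.65% of all genes. CCAAT lay in 1 of 5 inducible genes, on the opposite strand at bases -8 to -4 of Psmb9, and in 10 of 25 constitutive genes, against 37.5% of all genes. The antioxidant-response core TGACNNNGC lay in 0 of 5 inducible and 4 of 25 constitutive genes, among them Psmb5 at bases -47 to -39 and Psmb6 at bases -9 to -1, against 11.5% of all genes. Psmb9 and Tap1 are transcribed in opposite directions, and their windows share 225 bases. A match describes letters in these windows only. The RefSeq table held a window for 41 of the 48 genes, with Psmb7 not among them.

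Levels below are log2 processed signal minus the 75th percentile of the array, so that 0 is that percentile, and they compare arrays for 1 gene, not genes with each other. Changes are log2 differences with limma's standard error. Calls rest on 1 limma fit of the 12 arrays, two-sided, at an adjusted p (Benjamini-Hochberg over all 13168 genes) under 0.05, and adjusted p-values below are limma's. The percentile itself was 435 to 548 intensity units with LPS_IFNg_emodin, 763 to 942 with LPS_IFNg and 747 to 971 in control. Spike-in probes gave a mean log2 signal of 13.29 ± 0.09 on LPS_IFNg_emodin arrays and 13.38 ± 0.08 on LPS_IFNg arrays (SD, n = 4 each), so scaling to spike-ins lowered the median difference of all genes between these groups to -0.67. The spike-in mean was 10.78 ± 0.19 on control arrays (SD, n = 4), which sit on a slide of their own scanned apart. Slide, age and control treatment therefore cannot be told apart in any comparison with control, while both treated groups share 1 slide. On the arrays of control replicates 3 and 4, labelled male, Xist was above background and Ddx3y and Eif2s3y were not, as on the arrays of control replicates 1 and 2, labelled female. On those of replicate 3 in both treated groups, labelled female, the reverse was seen, so the calls that changed without these arrays are given below. All 48 genes were measured on 12 arrays, apart from Psmb9, whose spot on LPS_IFNg replicate 2 was flagged, and Psmc3, whose spot on control replicate 1 was flagged, each then fitted on 11.

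The 5 inducible subunits rose with LPS and IFNg, and with emodin 3 of them fell while Psmb9 and Psme2 had levels that overlapped those without it. In LPS_IFNg cells all 5 rose over control by between 1.68 and 2.30, with a median of 1.92, against a median of -0.03 over all genes, of which 69% were called, 34.1% up and 34.9% down. In LPS_IFNg_emodin cells against LPS_IFNg cells 3 fell and 2 were not called, with a median of -0.78 against 0.01 over all genes, of which 36% were called down and 36.1% up. With quantile normalization and with spike-in scaling all 5 were called down. Against control the LPS_IFNg_emodin cells were higher for 4 of 5, with a median of 1.36 against 0.02, while 78% of all genes were called, 39.8% up and 38.2% down. Leaving out 1 array gave 3 to 4 higher. In bulk RNA a change in the number of cells of a type and a change in RNA per cell cannot be told apart, here and in all results below. The LPS_IFNg arrays enter the first and second of these comparisons and the control arrays the first and last, so the comparisons are not independent of each other.

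Psmb8, which takes the place of the chymotrypsin-like Psmb5, had levels of 5.50, 5.21, 5.19 and 5.35 on LPS_IFNg_emodin arrays, 7.05, 6.83, 6.85 and 6.84 on LPS_IFNg arrays and 5.03, 5.33, 4.97 and 4.84 on control arrays. LPS_IFNg arrays were higher than all others, and the LPS_IFNg_emodin and control arrays overlapped. Psmb8 rose by 1.85 ± 0.11 in LPS_IFNg against control (3.60-fold, adjusted p = 2.69e-08), and it fell by 1.58 ± 0.11 in LPS_IFNg_emodin against LPS_IFNg (2.99-fold lower, adjusted p = 1.41e-07). LPS_IFNg_emodin exceeded control by 0.27 ± 0.11 (adjusted p = 0.0398), a call that was lost without the control arrays labelled male (0.13, adjusted p = 0.338) and reversed in sign with quantile normalization (-0.07, adjusted p = 0.435).

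Psmb10, which takes the place of the trypsin-like Psmb7, had levels of 6.68, 6.47, 6.33 and 6.58 on LPS_IFNg_emodin arrays, 8.24, 8.14, 8.03 and 8.23 on LPS_IFNg arrays and 6.45, 6.66, 6.38 and 6.41 on control arrays. The pattern was that of Psmb8, with the LPS_IFNg arrays apart and the other groups overlapping. Psmb10 rose by 1.68 ± 0.09 in LPS_IFNg against control (3.21-fold, adjusted p = 1.45e-08) and fell by 1.64 ± 0.09 in LPS_IFNg_emodin against LPS_IFNg (3.12-fold lower, adjusted p = 2.76e-08). It differed from control in LPS_IFNg_emodin cells by 0.04 ± 0.09 (adjusted p = 0.703). With quantile normalization this last difference was called in the other direction (-0.47, adjusted p = 0.000105), so whether LPS_IFNg_emodin cells stood at or below the control level depended on the scaling.

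Psmb9, which takes the place of the caspase-like Psmb6, had levels of 6.22, 6.05, 5.97 and 6.24 on LPS_IFNg_emodin arrays, 6.20, 6.37 and 6.10 on the 3 LPS_IFNg arrays measured and 3.85, 4.20, 3.84 and 3.82 on control arrays. Both treated groups overlapped each other and lay above every control array. The rise over control was 2.19 ± 0.11 in LPS_IFNg_emodin cells (4.57-fold, adjusted p = 9.01e-09) and 2.30 ± 0.12 in LPS_IFNg cells (4.92-fold, adjusted p = 1.92e-08). The difference with emodin was -0.11 ± 0.12 (adjusted p = 0.42). It was called under quantile normalization (-0.28, adjusted p = 0.0302) and under spike-in scaling (-0.76, adjusted p = 0.00098). Tap1, the peptide transporter gene across the shared upstream region, was 0.42 ± 0.10 higher in LPS_IFNg_emodin than in LPS_IFNg cells (adjusted p = 0.00165) and 4.62 ± 0.10 higher in LPS_IFNg than in control cells. Under spike-in scaling the emodin difference of Tap1 was -0.26.

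Psme1 and Psme2 encode the alpha and beta subunits of the activator ring, of which the alpha subunit fell with emodin and the beta subunit was not called. Psme1 had levels of 6.49, 6.40, 6.40 and 6.51 on LPS_IFNg_emodin arrays, 7.25, 7.19, 7.24 and 7.24 on LPS_IFNg arrays and 5.03, 5.12, 5.15 and 5.07 on control arrays. The 3 groups did not overlap at any point. Psme1 rose by 2.14 ± 0.06 in LPS_IFNg against control (4.40-fold, adjusted p = 3.88e-11), fell by 0.78 ± 0.06 in LPS_IFNg_emodin against LPS_IFNg (1.71-fold lower, adjusted p = 2.22e-07) and remained 1.36 ± 0.06 above control (2.57-fold, adjusted p = 8.36e-10). Its probe is printed 10 times per array, of which 8 to 10 spots were used, and the SD between spots of an array was 0.03 to 0.07.

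Psme2 had levels of 9.17, 9.03, 9.11 and 8.88 on LPS_IFNg_emodin arrays, 9.29, 9.06, 9.14 and 9.15 on LPS_IFNg arrays and 7.26, 7.35, 7.25 and 7.09 on control arrays. The treated groups overlapped, and both lay above control. The rise over control was 1.81 ± 0.08 in LPS_IFNg_emodin cells (3.50-fold) and 1.92 ± 0.08 in LPS_IFNg cells (3.79-fold), each with an adjusted p of 1.93e-09. The emodin difference was -0.12 ± 0.08 (adjusted p = 0.235), and -0.34 by the other probe of Psme2. It was called with quantile normalization (-0.55, adjusted p = 5.19e-06), with normexp background correction (-0.24, adjusted p = 0.0393) and with spike-in scaling (-0.80, adjusted p = 1.34e-05).

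**Figure D1:**
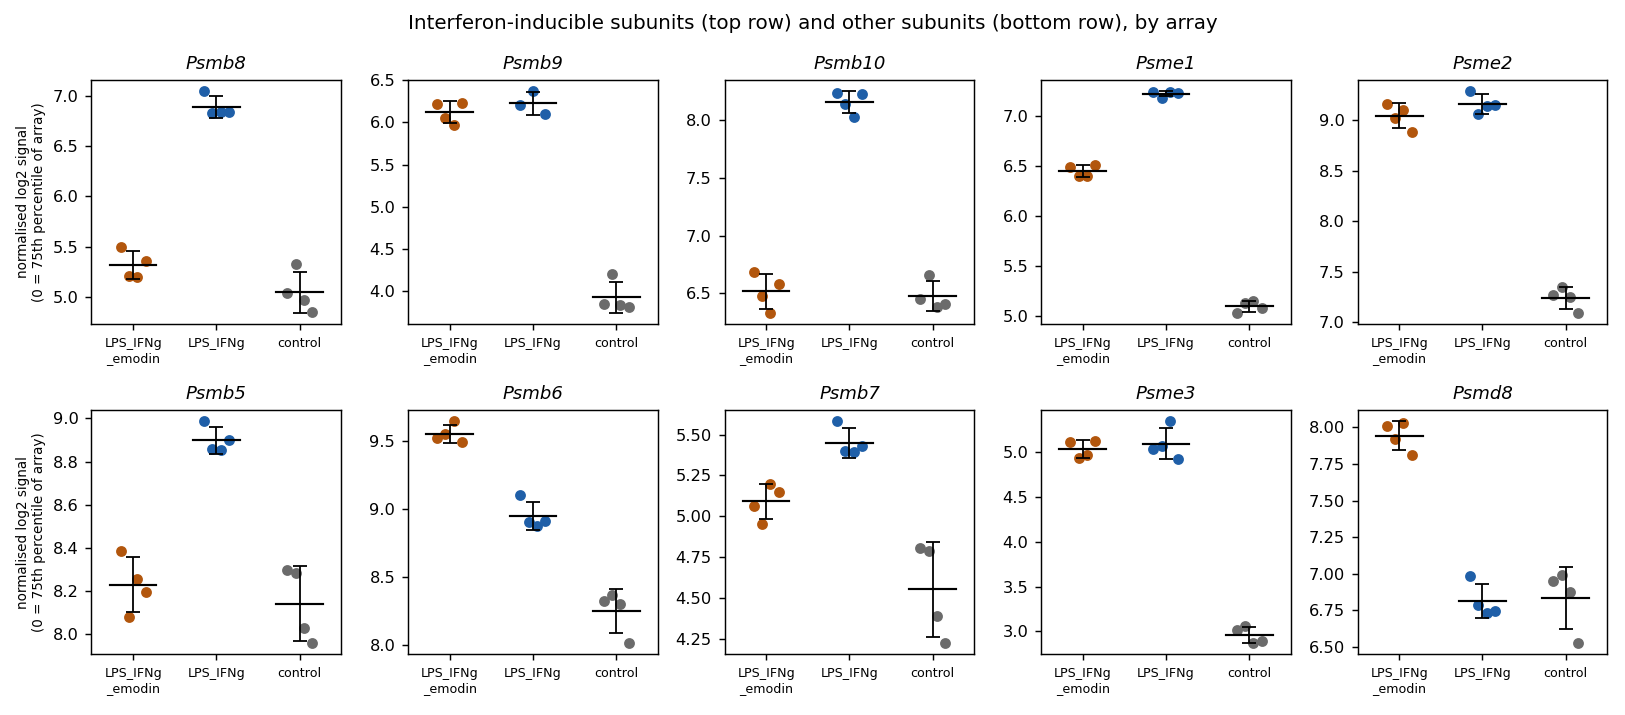
Normalised log2 signal (vertical axis, 0 is the 75th percentile of the array, each panel with its own range) of the 5 interferon-inducible subunits and of 5 other members in LPS_IFNg_emodin, LPS_IFNg and control macrophages; points are arrays, long bars means and short bars the SD (n = 4, and 3 for Psmb9 in LPS_IFNg). Psmb8 and Psmb10 are near the control level with emodin at 5.31 and 6.52, whereas Psmb9 and Psme2 stay beside the LPS_IFNg arrays at 6.12 and 9.05.

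The 3 constitutive catalytic subunits also rose in LPS_IFNg cells, by less than their inducible partners, and moved apart with emodin. Psmb5 had levels of 8.39, 8.08, 8.26 and 8.20 on LPS_IFNg_emodin arrays, 8.99, 8.86, 8.85 and 8.90 on LPS_IFNg arrays and 8.30, 8.28, 8.03 and 7.96 on control arrays. It rose by 0.76 ± 0.09 with LPS and IFNg (adjusted p = 1.9e-05) and fell by 0.67 ± 0.09 with emodin (adjusted p = 4.95e-05), to levels that overlapped control. With quantile normalization and in the authors' deposited value table Psmb5 was called lower than control with emodin. Its other probe stood at -0.20 against control with emodin, so whether it was at or below the control level depended on scaling and probe. Psmb6 had levels of 9.53, 9.56, 9.65 and 9.50 on LPS_IFNg_emodin arrays, 9.10, 8.91, 8.87 and 8.92 on LPS_IFNg arrays and 8.32, 8.37, 8.30 and 8.01 on control arrays. It stepped up in each treated group without overlap, by 0.70 ± 0.09 in LPS_IFNg over control (adjusted p = 2.02e-05) and by a further 0.61 ± 0.09 in LPS_IFNg_emodin over LPS_IFNg (adjusted p = 5.98e-05). The further rise was 0.10 with quantile normalization (adjusted p = 0.165) and -0.08 with spike-in scaling (adjusted p = 0.58). Psmb7 had levels of 5.06, 4.95, 5.20 and 5.15 on LPS_IFNg_emodin arrays, 5.58, 5.40, 5.39 and 5.43 on LPS_IFNg arrays and 4.81, 4.79, 4.39 and 4.22 on control arrays. It rose by 0.90 ± 0.13 with LPS and IFNg (adjusted p = 5.27e-05) and fell by 0.36 ± 0.13 with emodin (adjusted p = 0.0235), a call lost without replicate 2 of LPS_IFNg_emodin (-0.31, adjusted p = 0.0658) or replicate 1 of LPS_IFNg (-0.31, adjusted p = 0.0628).

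The log2 ratio of the inducible to the constitutive member of each pair, taken within an array with the control mean set to 0, is left unchanged by any scaling with 1 factor per array. For Psmb8 over Psmb5 it averaged 0.18 ± 0.10 in LPS_IFNg_emodin and 1.09 ± 0.05 in LPS_IFNg cells, against a control SD of 0.13. For Psmb10 over Psmb7 it averaged -0.50 ± 0.21 in LPS_IFNg_emodin and 0.78 ± 0.08 in LPS_IFNg cells, against a control SD of 0.22 (SD, n = 4 each). For Psmb9 over Psmb6 it averaged 0.89 ± 0.19 in LPS_IFNg_emodin (SD, n = 4) and 1.59 ± 0.21 in LPS_IFNg cells (SD, n = 3), against a control SD of 0.17. In every pair the arrays with emodin lay below those with LPS_IFNg alone without overlap. Relative to control the ratio stayed higher with emodin for Psmb9 over Psmb6, overlapped control for Psmb8 over Psmb5 and was lower than on every control array for Psmb10 over Psmb7. The place of Psmb8 over Psmb5 relative to control rests on 1 of 2 Psmb5 probes. For LPS_IFNg_emodin against control the probe used stood at 0.09 and the other at -0.20. Quantile normalization is not a scaling with 1 factor per array. The ratios were taken neither under it nor with the other probe. These ratios are descriptions and carry no test.

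**Figure D2:**
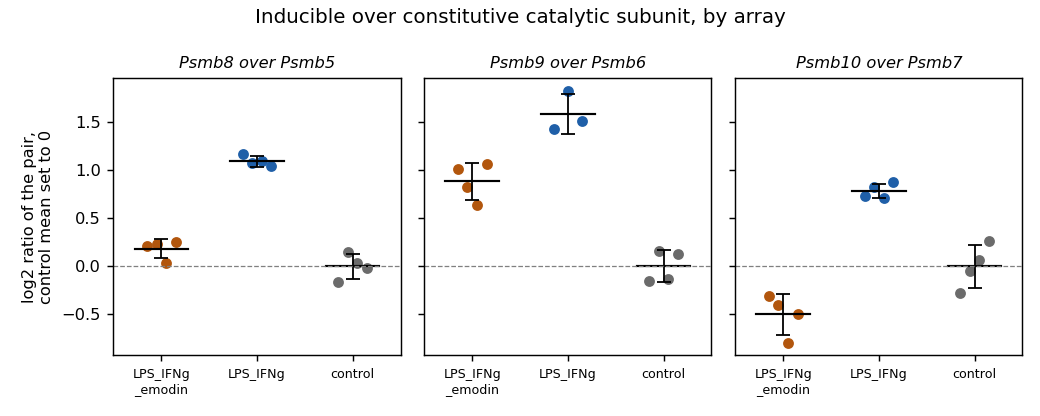
Log2 ratio of the inducible over the constitutive catalytic subunit within each array (vertical axis, control mean set to 0) in LPS_IFNg_emodin, LPS_IFNg and control macrophages; points are arrays, long bars means and short bars the SD (n = 4, and 3 for Psmb9 over Psmb6 in LPS_IFNg). The LPS_IFNg means are 1.09, 1.59 and 0.78, each above the mean with emodin at 0.18, 0.89 and -0.50.

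Nearly all constitutive subunits rose in LPS_IFNg cells, where 34.1% of all genes were called up and 34.9% down. Of 31, 30 rose over control, none fell and Psmd8 was not called, with a median of 0.90 and a range of -0.02 to 1.62. The 5 inducible subunits, at 1.68 to 2.30, all lay above that range, by a narrow margin between Psmb10 and Psmd14, the deubiquitinase of the cap. The members are bright probes, and 38 of the 48 lay among the 3292 brightest genes, whose median was 0.13 and of which 44.3% were called up. Of the 31, 10 rose by at least 2-fold, against 14.3% of all genes, and the arrays of 30 did not overlap between groups, against 64.4% of all genes. With quantile normalization the count was 29 up and 1 down. Control replicates 3 and 4 were lower than 1 and 2 for most of these subunits, with median shifts from the control mean of 0.13, 0.14, -0.08 and -0.21 in replicates 1 to 4. Without the 2 arrays labelled male, 29 rose with a median of 0.69, the call of Psma6 being lost (0.69, adjusted p = 0.211).

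All 7 alpha ring genes, which form the gate of the barrel, rose in LPS_IFNg over control, with a median of 0.96 and with Psma5 the highest at 1.61 ± 0.10 (adjusted p = 6.03e-08). The 4 noncatalytic beta genes rose by a median of 0.84, with Psmb2 at 1.07 ± 0.09 the highest. All 6 cap ATPases, which unfold substrates, rose by 0.72 to 1.11. Of 11 cap non-ATPases 10 rose, and the highest were Psmd14 at 1.62 ± 0.10 (adjusted p = 5.21e-08) and Psmd11, a scaffold of the lid, at 1.55 ± 0.06 (adjusted p = 1e-09). Beside these counts, 34.1% of all genes and 44.3% of the 3292 brightest were called up. The rise of Psma6, at 0.90 ± 0.35 (adjusted p = 0.0363), carried a wide error, and LPS_IFNg_emodin replicate 2 stood at 7.64 while the other arrays of that group lay between 5.76 and 5.89. Without that array the adjusted p of the Psma6 rise was 2.79e-05. The call was lost without any 1 of the 4 LPS_IFNg arrays, without control replicate 3 and without control replicate 4, with adjusted p-values of 0.0605 to 0.0848.

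**Figure D3:**
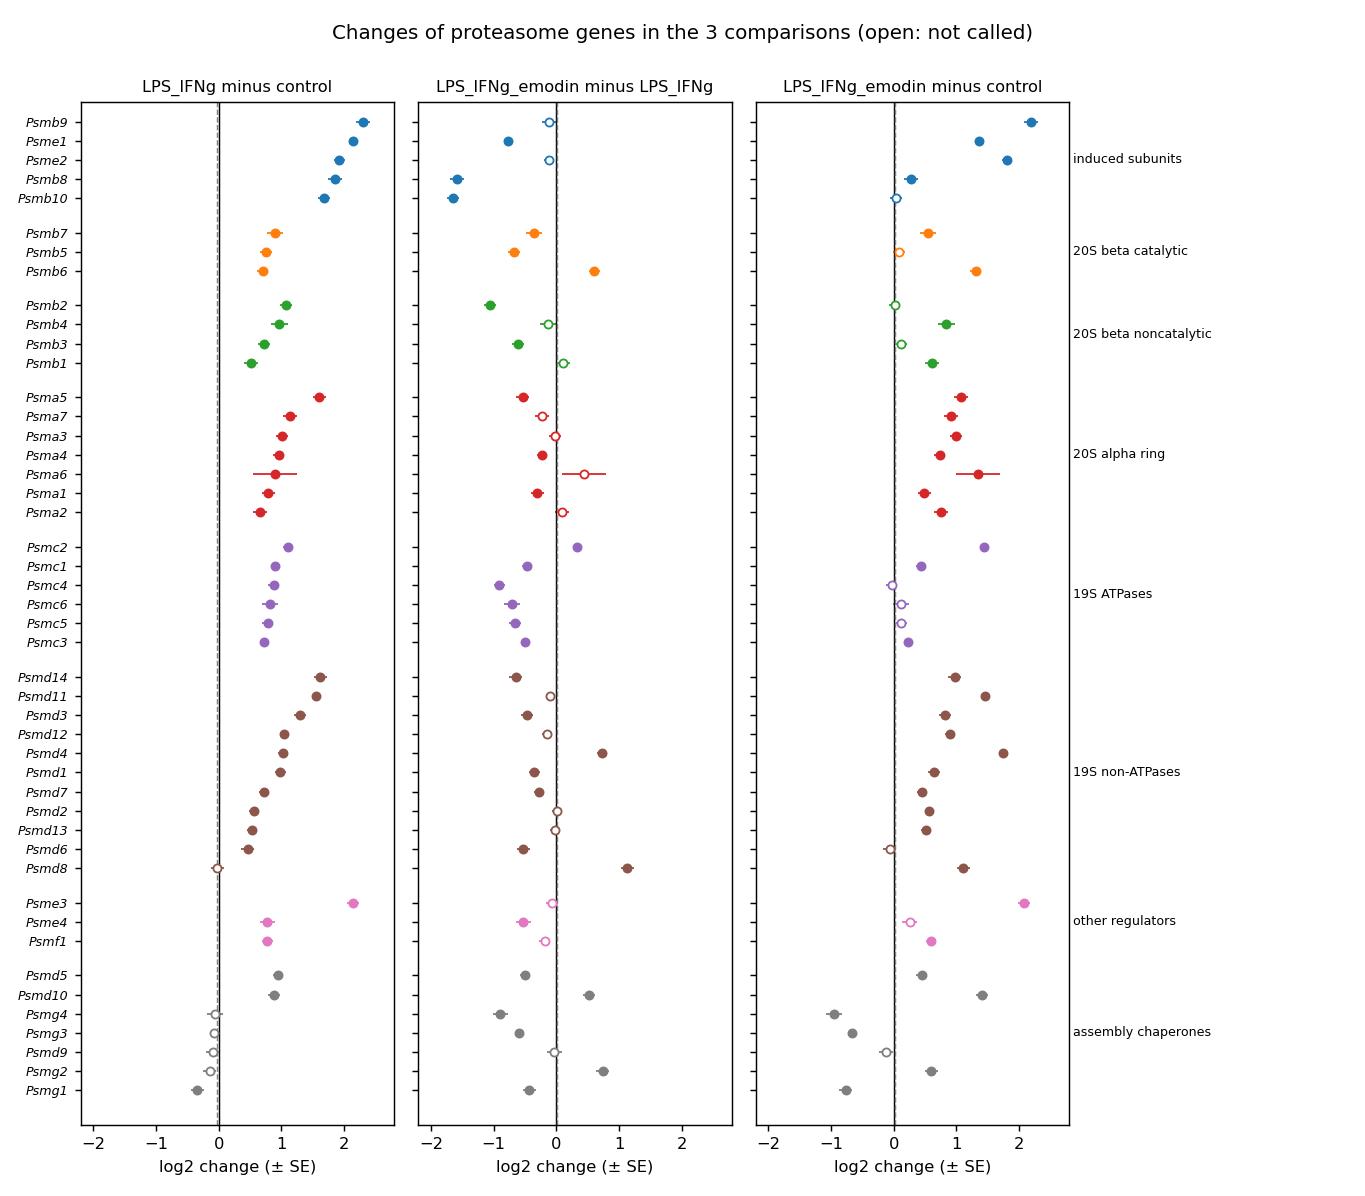
Log2 change (horizontal axis, ± SE of the limma fit) of the 46 subunits, regulators and chaperones, with 1 panel for LPS_IFNg over control, 1 for LPS_IFNg_emodin over LPS_IFNg and 1 for LPS_IFNg_emodin over control; filled points are called, open points are not, colours are the groups named at the right and the dashed line is the median of all genes. The constitutive subunits sit to the right of 0 with LPS and IFNg, except Psmd8 at -0.02. With emodin they spread to both sides, between -1.05 and 1.13.

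With emodin the constitutive subunits were no longer uniform. Of 31, 17 fell, 4 rose and 10 were not called in LPS_IFNg_emodin against LPS_IFNg, with a median of -0.27 and a range of -1.05 to 1.13. Over all genes 72% were called, 36% down and 36.1% up, and the 3292 brightest genes had a median of 0.12. The arrays of 24 did not overlap between groups, against 67.5% of all genes. The split depended on scaling. It was 24 down and 2 up with quantile normalization, where 38.8% of all genes were called down and 33.3% up, and 27 down and 1 up with spike-in scaling, where 65.5% of all genes were called down and 9.28% up. Relative to the median of all genes, the median of the 31 was therefore lower under each scaling, at -0.48 against -0.04 with quantile normalization and -0.96 against -0.67 with spike-in scaling.

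The largest fall among them was that of Psmb2, a noncatalytic beta subunit, with levels of 2.01, 2.01, 1.95 and 2.14 on LPS_IFNg_emodin arrays, 2.94, 3.19, 3.07 and 3.13 on LPS_IFNg arrays and 2.09, 2.17, 1.98 and 1.80 on control arrays. It fell by 1.05 ± 0.09 (2.08-fold lower, adjusted p = 7.05e-07), and the LPS_IFNg_emodin arrays overlapped control. Of the 6 cap ATPases 5 fell, by 0.47 (Psmc1) to 0.91 (Psmc4, adjusted p = 2.89e-06), whereas Psmc2 rose by 0.34 ± 0.08 (adjusted p = 0.00185). Psmc2 was at -0.02 with quantile normalization and at -0.35 with spike-in scaling. In the alpha ring 3 of 7 fell, Psma1, Psma4 and Psma5, of which Psma5 fell the most at -0.53 ± 0.10 (adjusted p = 0.000641). Over all genes 36% were called down, so 3 of 7 is near that share. The falls of Psma1 and Psma4 were lost without replicate 3 of both treated groups (adjusted p = 0.0869 and 0.154). With 1 array left out, the call of Psma1 held in 10 of 12 fits and that of Psma4 in 8 of 12. Psma7, at -0.23 ± 0.12 (adjusted p = 0.101), was called when only the 8 arrays of these groups were fitted, without the replicate number as a block (adjusted p = 0.0133) and with it (adjusted p = 0.0183), but not with the block over all 12 arrays (adjusted p = 0.0617).

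Among the cap non-ATPases 5 of 11 fell with emodin, by 0.27 to 0.65, and 2 rose, where 36% of all genes were called down and 36.1% up. Psmd8, a lid subunit, had levels of 8.01, 7.92, 8.03 and 7.81 on LPS_IFNg_emodin arrays, 6.98, 6.79, 6.73 and 6.74 on LPS_IFNg arrays and 6.95, 6.99, 6.87 and 6.52 on control arrays. The arrays with emodin stood above all others, and the LPS_IFNg and control arrays overlapped. Psmd8 rose by 1.13 ± 0.11 with emodin (2.19-fold, adjusted p = 1.61e-06) and differed by -0.02 ± 0.11 between LPS_IFNg and control (adjusted p = 0.865). It was the only one of the 48 genes still called up with spike-in scaling (0.45, adjusted p = 0.00352). Psmd4, a ubiquitin receptor of the cap, had levels of 7.95, 7.96, 7.97 and 7.94 on LPS_IFNg_emodin arrays, 7.33, 7.22, 7.18 and 7.19 on LPS_IFNg arrays and 6.17, 6.29, 6.32 and 6.08 on control arrays. It stepped up without overlap in both comparisons, by 0.72 ± 0.07 with emodin (adjusted p = 1.53e-06), a difference of 0.04 under spike-in scaling.

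Compared with control, LPS_IFNg_emodin cells had 24 of the 31 constitutive subunits higher, none lower and 7 not called, with a median of 0.64 against 0.33 for the 3292 brightest genes, of which 55.1% were called up. The 7 were Psmb2, Psmb3, Psmb5, Psmc4, Psmc5, Psmc6 and Psmd6, with differences of -0.06 to 0.12 and adjusted p-values of 0.245 to 0.865. Their LPS_IFNg_emodin and control arrays overlapped in every case, whereas those of 72.5% of all genes did not. All alpha ring genes stayed higher than control, by 0.49 to 1.07 for 6 of them and by 1.34 for Psma6, which was at 0.88 without LPS_IFNg_emodin replicate 2. Without the control arrays labelled male, Psmc3 lost its call (0.17, adjusted p = 0.103), as did Psmc3ip (0.21, adjusted p = 0.116), and Psmc4 (-0.19, adjusted p = 0.0307) and Psmd6 (-0.24, adjusted p = 0.0324) were called lower than control. This comparison also moved with scaling, to 16 higher and 5 lower with quantile normalization and to 23 higher and 2 lower with the percentile taken over probes detected on all arrays. The median of all genes was then -0.14 and -0.18, and -0.13 and -0.16 for LPS_IFNg against control.

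The other activators of the barrel behaved differently from one another. Psme3, the nuclear activator related to Psme1 and Psme2, had levels of 5.12, 4.94, 4.97 and 5.13 on LPS_IFNg_emodin arrays, 5.04, 5.08, 5.35 and 4.93 on LPS_IFNg arrays and 3.02, 3.06, 2.87 and 2.90 on control arrays. The treated groups overlapped and lay above control, by 2.08 ± 0.09 in LPS_IFNg_emodin (4.22-fold, adjusted p = 1.56e-09) and 2.14 ± 0.09 in LPS_IFNg cells (4.41-fold, adjusted p = 2.06e-09). Its change with LPS and IFNg thus lay within the range of the 5 inducible subunits. Psme4, a large single-chain activator, rose by 0.78 and its probes disagreed about emodin, at -0.52 and 0.46. Psmf1, an inhibitor of the proteasome, rose by 0.77 with LPS and IFNg and was not called with emodin (-0.18 ± 0.08, adjusted p = 0.0718).

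The assembly chaperones changed in both directions. Of 7, Psmd5 and Psmd10 rose in LPS_IFNg over control, Psmg1 fell and 4 were not called, with a median of -0.07, where 34.1% of all genes were called up and 34.9% down, so that 2 of 7 up is near the share over all genes. In LPS_IFNg_emodin against LPS_IFNg 4 fell, 2 rose and Psmd9 was not called, where 36% of all genes were called down and 36.1% up. Without the control arrays labelled male, Psmd9 was called lower in LPS_IFNg_emodin (-0.33, adjusted p = 0.00263) and in LPS_IFNg cells (-0.30, adjusted p = 0.00555) than in control, and Psmg2 lower in LPS_IFNg cells (-0.29, adjusted p = 0.034). Psmg1, which with Psmg2 starts the alpha ring, had levels of 3.09, 3.30, 3.26 and 3.11 on LPS_IFNg_emodin arrays, 3.81, 3.59, 3.42 and 3.64 on LPS_IFNg arrays and 4.03, 4.12, 3.87 and 3.80 on control arrays. It fell by 0.43 ± 0.10 in LPS_IFNg_emodin against LPS_IFNg without overlap (adjusted p = 0.00232) and by 0.34 ± 0.10 in LPS_IFNg against control with a slight overlap (adjusted p = 0.00983). Its partner Psmg2 had levels of 3.03, 3.18, 2.96 and 3.26 on LPS_IFNg_emodin arrays, 2.51, 2.30, 2.35 and 2.31 on LPS_IFNg arrays and 2.59, 2.72, 2.41 and 2.32 on control arrays. It went the other way, rising by 0.74 ± 0.10 with emodin (adjusted p = 3.85e-05), though by 0.06 under spike-in scaling (adjusted p = 0.727).

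Psmg3 and Psmg4, which form the other chaperone pair of the core, changed together. Psmg4 had levels of 1.65, 1.61, 1.55 and 1.95 on LPS_IFNg_emodin arrays, 2.60, 2.64, 2.40 and 2.68 on LPS_IFNg arrays and 2.68, 2.91, 2.61 and 2.35 on control arrays. Psmg3 had levels of 2.42, 2.56, 2.55 and 2.56 on LPS_IFNg_emodin arrays, 3.10, 3.14, 3.10 and 3.12 on LPS_IFNg arrays and 3.23, 3.26, 3.23 and 3.05 on control arrays. Both overlapped between LPS_IFNg and control and were lower than either with emodin, by 0.89 ± 0.12 for Psmg4 (adjusted p = 4.5e-05) and 0.59 ± 0.07 for Psmg3 (adjusted p = 6.24e-06) against LPS_IFNg. In the main fit Psmg1, Psmg3 and Psmg4 were the only 3 of the 48 genes called lower in LPS_IFNg_emodin than in control. Over all genes 38.2% were called lower in that comparison. More of the 48 were called lower with quantile normalization and without the control arrays labelled male, as given below. Of the cap chaperones Psmd5 fell by 0.50 with emodin, and Psmd10 rose by 0.53 on its brighter probe while the other probe gave -0.39.

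**Figure D4:**
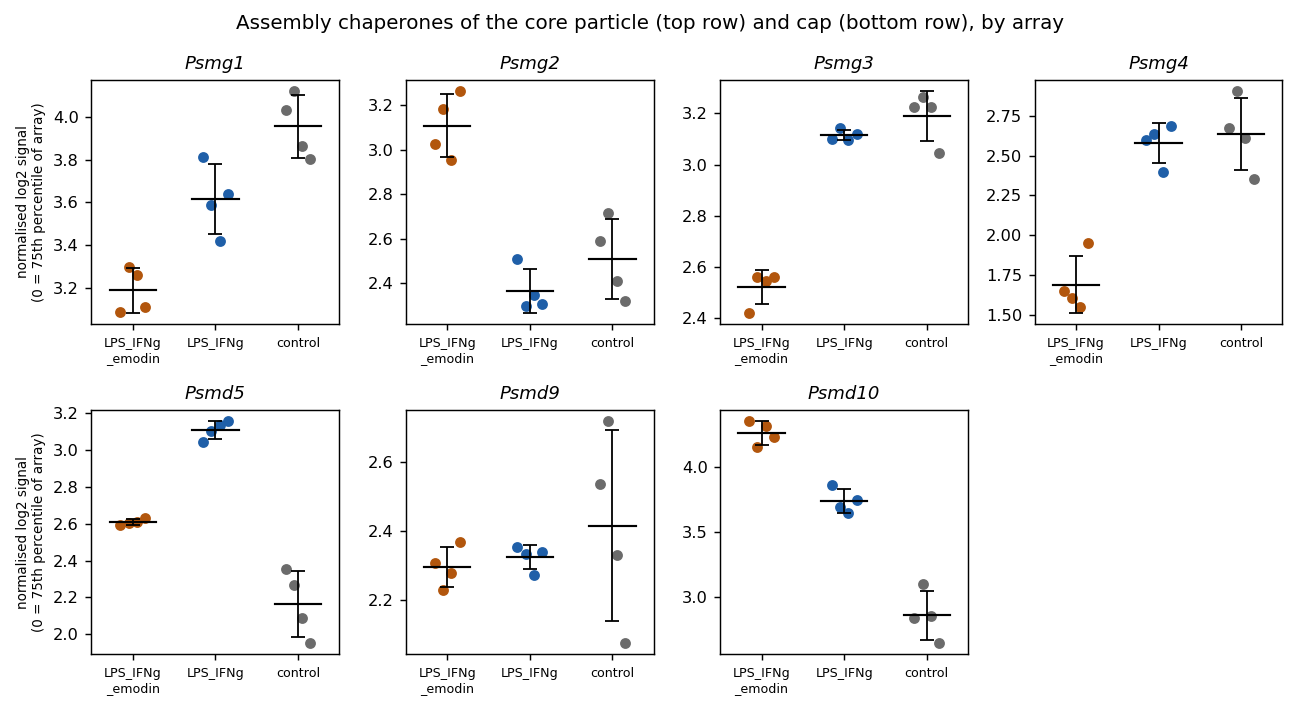
Normalised log2 signal (vertical axis, 0 is the 75th percentile of the array, each panel with its own range) of the 7 assembly chaperones in LPS_IFNg_emodin, LPS_IFNg and control macrophages; points are arrays, long bars means and short bars the SD (n = 4). Psmg3 and Psmg4 are lowest with emodin, at means of 2.52 and 1.69, and Psmg2 is highest with emodin at 3.11.

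Other genes tied to the proteasome moved with emodin in both directions. Pomp, the chaperone that completes the barrel, rose by 0.84 with LPS and IFNg and fell by 1.15 ± 0.09 with emodin (adjusted p = 5.3e-07). Nfe2l1, the transcription factor known to raise proteasome genes when the proteasome is inhibited, rose by 0.64 with LPS and IFNg and by a further 1.58 ± 0.09 with emodin (adjusted p = 3e-08). Ubqln1, a shuttle that carries ubiquitin-tagged proteins to the cap, rose by 1.23 with LPS and IFNg and by a further 0.60 with emodin. Ecpas, a proteasome adaptor, rose by 0.92 and then 1.21, and Zfand2a, a stress-inducible partner of the cap, fell by 0.26 in LPS_IFNg and rose by 1.05 with emodin. Adrm1, a ubiquitin receptor of the cap, rose by 0.92 and was at -0.18 with emodin (adjusted p = 0.0503). This emodin difference was called when the 8 arrays of the treated groups were fitted with the replicate number as a block. Over the whole list of 23 such genes 12 rose, 3 fell and 8 were not called with LPS and IFNg, and 11 rose, 4 fell and 8 were not called with emodin, with medians of 0.43 and 0.22. Over all genes 34.1% were called up and 34.9% down with LPS and IFNg, and 36.1% up and 36% down with emodin. With spike-in scaling the emodin counts were 3 up and 14 down, where 9.28% of all genes were called up and 65.5% down, and with quantile normalization 9 up and 6 down, where 33.3% were called up and 38.8% down.

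Antigen presentation and interferon genes differed among themselves in the same contrast. Of 13 MHC class I presentation genes 11 rose in LPS_IFNg over control and 1 fell, where 34.1% of all genes were called up and 34.9% down, and with emodin 6 rose and 6 fell, where the shares were 36.1% and 36%. Nlrc5, the transactivator of MHC class I genes, rose by 4.17 ± 0.17 with LPS and IFNg and fell by 1.09 ± 0.17 with emodin (adjusted p = 0.00011), and Erap1, which trims peptides, rose by 0.92 and fell by 0.85. The class I heavy chains H2-T23 and H2-D1 rose by 0.82 and 0.58 with LPS and IFNg and by a further 0.48 and 0.55 with emodin. With spike-in scaling 0 of the 13 rose with emodin and 10 fell, where 65.5% of all genes were called down.

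Of 10 interferon gamma regulators 8 rose and 2 fell with LPS and IFNg, and 1 rose, 5 fell and 4 were not called with emodin, beside 34.1% up and 34.9% down over all genes with LPS and IFNg and 36.1% up and 36% down with emodin. Irf1, the factor that drives the inducible subunits, rose by 5.09 ± 0.09 in LPS_IFNg over control and was 0.63 ± 0.09 higher with emodin (adjusted p = 3.7e-05), though at 0.16 with quantile normalization and -0.06 with spike-in scaling. Socs1, a feedback inhibitor, rose by 6.82 ± 0.11 and fell by 2.33 ± 0.11. Among 10 ubiquitin and ubiquitin-like genes 7 rose and 2 fell with LPS and IFNg, and 5 rose and 2 fell with emodin, beside the same shares over all genes. Ubd, a modifier that sends proteins to the proteasome, had no control array above background and was at least 1599-fold higher in LPS_IFNg_emodin and at least 309-fold higher in LPS_IFNg cells than that limit. Between the treated groups Ubd was 2.37 ± 0.26 higher with emodin (adjusted p = 5.6e-06).

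Markers of other cells moved between the groups, and their part in these results was not tested. The summed linear level of 11 mesothelial and fibroblast markers was 10.8 to 35.3 on LPS_IFNg_emodin arrays, 70.3 to 135 on LPS_IFNg arrays and 17.1 to 74.8 on control arrays. Pdgfra, Krt8 and Upk3b were not above background on any array with emodin, and Upk3b and Lum not on any LPS_IFNg array. For 6 B cell markers the summed level was 0.146 to 0.322 on LPS_IFNg_emodin, 0.584 to 1.78 on LPS_IFNg and 0.875 to 1.99 on control arrays. Of these, Ms4a1 was above background on no array with emodin and on all LPS_IFNg and control arrays. Cd79a was above background on no array of either treated group, and Blk on no array of any group. Pax5 was above background on some arrays with emodin and on no others. For 11 macrophage markers the summed level was 464 to 560 on LPS_IFNg_emodin, 415 to 498 on LPS_IFNg and 559 to 583 on control arrays. That sum is carried by the brightest genes, among them Lyz2, which was 0.91 higher with emodin than in LPS_IFNg cells, while 8 of the 11 markers were called lower with emodin and 2 higher, with a median of -1.11. Over all genes 36% were called lower with emodin and 36.1% higher. The 10 neutrophil markers, of which Ngp was above background on no array, gave 26.9 to 33.2 on LPS_IFNg_emodin, 21.9 to 26.4 on LPS_IFNg and 24.4 to 35.2 on control arrays. The 9 T and NK cell markers, of which Cd8a was above background on no array, gave 12.4 to 15.6 on LPS_IFNg_emodin, 12.1 to 14.9 on LPS_IFNg and 8.23 to 8.71 on control arrays. Lck was 3.52 higher in LPS_IFNg than in control cells, whereas Cd3e was 1.18 lower (log2 change -1.18) and Prf1 0.26 lower (log2 change -0.26). The 5 dendritic cell markers were faint, at 0.206 to 0.412 on LPS_IFNg_emodin, 0.581 to 0.811 on LPS_IFNg and 0.199 to 0.289 on control arrays. Of 4 that were tested 3 were called higher and 1 lower in LPS_IFNg than in control cells, with a median of 1.96. With emodin 3 were called lower and 1 higher, with a median of -1.36. Over all genes 34.1% were called higher and 34.9% lower in LPS_IFNg than in control cells, and with emodin 36.1% higher and 36% lower. Cd209a was above background on all control arrays and on no array of either treated group. The 8 mast cell and eosinophil markers gave 0.98 to 1.70 on LPS_IFNg_emodin, 0.811 to 1.55 on LPS_IFNg and 1.52 to 2.32 on control arrays.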

How the data were processed

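Intensity values of each spot are in the deposited scanner files, for which the submitters' processing notes name Agilent Feature Extraction 10.7.3.1. Per the file headers, the processed signal had its background subtracted and was not scaled between arrays. The authors' deposited value table holds log2 values and was used as an alternative only. On differences between arrays its columns matched quantile-normalised, probe-centred log2 signal, with column medians of -0.0314 to 0.0416, and the columns named control 1, 3 and 4 held the values of scanner arrays control 4, 1 and 3. The cause of this mismatch is not known, and group means are unaffected. Which control arrays bear the male label does depend on it. The columns named control 3 and 4 held scanner arrays control 1 and 3. The fits without the control arrays labelled male left out scanner arrays control 3 and 4.

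Of 62976 spots per array 59305 were not controls, and 78 to 415 with outlier flags were left out. Probes (55681) were named by accession through RefSeq GRCm38.p6. This named 27509 with 1 of 20887 symbols, 0 with several, and left 28172 unnamed. The brightest of 27375 probes kept stood for each of 13168 genes. Each array had 45.4% to 50.8% of its probes well above background, no member's spot was saturated, and 11 members had several kept probes. Replicates of a group correlated at 0.991 to 0.997. The number of arrays limits the precision.

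R 4.3.3 and limma 3.58.1 fitted 3 group means (9 residual and 2.49 prior degrees of freedom), checked on simulated data. Spike-in scaling used 7 of 10 spike-in probes. Normexp (offset 50) was run on the median signal and background columns, since the files used here have no mean signal column. A bound ("at least") sets the brighter group's mean against the dimmer group's, each of its arrays taken at its measured signal or, if higher, the lowest one that any probe well above background had there.

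Same-numbered arrays of LPS_IFNg_emodin and LPS_IFNg deviated together (correlations 0.150 to 0.283, each the best match). Those numbers may therefore pair the arrays, a reading from the data rather than from the labels. The main fit, with its standard errors, adjusted p-values and calls, was unpaired. The replicate number entered only as a block in alternative fits. Numbers did not pair either group with control (correlations -0.186 to 0.141). The members and lists were chosen with earlier results of these data known. Named genes were all members, up to 4 genes with the largest change per linked list and comparison, and Tap1, Irf1, Nlrc5, Pomp, Adrm1 and Nfe2l1, apart from items not reported here.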

Additional observations from a re-analysis of the deposited data

Results flagged for a closer look

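Of 142 gene and group combinations with 4 arrays, 8 had 1 array far from the other 3 by Dixon's criterion, where chance gives about 1 in 20. Psma6 on LPS_IFNg_emodin replicate 2 stood at 7.64, with the others at 5.76 to 5.89. Psmc5 on LPS_IFNg_emodin replicate 1 stood at 4.72, with the others at 4.91 to 4.93, and Psmg3 on the same array at 2.42, with the others at 2.55 to 2.56. Psmb8 on LPS_IFNg replicate 1 stood at 7.05, with the others at 6.83 to 6.85. Psme1 on LPS_IFNg replicate 2 stood at 7.19, with the others at 7.24 to 7.25. Psmb9 on control replicate 2 stood at 4.20, with the others at 3.82 to 3.85. Psmd1 on control replicate 1 stood at 5.57, with the others at 5.38 to 5.39, and Psmg3 on control replicate 4 at 3.05, with the others at 3.23 to 3.26.

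The Psma6 array decided values of that gene. Without LPS_IFNg_emodin replicate 2 the difference between LPS_IFNg_emodin and LPS_IFNg was -0.02 (adjusted p = 0.911), against 0.44 with it, and the rise of LPS_IFNg_emodin over control was 0.88, against 1.34 with it.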

How the results depend on the processing

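Over the members' single changes, 1014 of 1055 alternative values for LPS_IFNg against control, 1063 of 1151 for LPS_IFNg_emodin against LPS_IFNg and 963 of 1055 for LPS_IFNg_emodin against control kept their direction and their side of the threshold. A further 16, 20 and 31 turned sign without being called before or after, and 0, 13 and 14 turned sign with a call on at least 1 side. The spike-in scaling could be used only between the treated groups, because controls were scanned apart, and Psmb9 has no value when only probes detected on all 12 arrays are kept. Of the alternatives, the block on 8 arrays was added after seeing the data. The cause of these differences was not tested.

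For LPS_IFNg against control, the median over all 48 genes (0.88) was 0.69 with quantile normalization, 0.75 with the percentile over detected probes, 0.70 with the deposited value table and 0.70 without the male-labelled controls, and the 2 falls became 5, 4, 5 and 4, or 0 with normexp. The constitutive median (0.90) was 0.68, 0.77, 0.68 and 0.69, with 1 fall under quantile normalization and 1 in the deposited table. The inducible median (1.92) was 1.71 with quantile normalization, 1.80 with detected probes, 2.07 with normexp, 2.05 with the mean of all probes and 1.70 in the deposited table. The chaperone median (-0.07) was -0.21 without the male-labelled controls and -0.15 to 0.011 with 1 array left out, turning sign without control replicate 2, and the 1 chaperone fall became 3 with quantile normalization, with detected probes, in the deposited table and without those controls, and 0 with normexp. Leaving out 1 array gave 1 to 2 falls among the 48 genes.

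For LPS_IFNg_emodin against LPS_IFNg, the median over the 48 genes (-0.25) was -0.48 with quantile normalization, -0.32 with detected probes, -0.45 with normexp, -0.48 in the deposited table and -0.93 with spike-in scaling, where 41 fell and 1 rose against 25 and 7. The constitutive median (-0.27) was -0.48, -0.35, -0.49, -0.48 and -0.96 under the same settings and -0.31 to -0.25 with 1 array left out. The 4 constitutive rises became 2 with quantile normalization, 2 in the deposited table and 1 with spike-in scaling, where falls numbered 27. The inducible median (-0.78) was -1.07 with quantile normalization, -1.18 with only probes detected on all arrays, -1.08 in the deposited table and -1.46 with spike-in scaling, and all 5 were called down with quantile normalization and with spike-in scaling. The chaperone median (-0.43) was -0.50 with detected probes, -0.50 with the mean of all probes, -0.48 in the deposited table, -1.11 with spike-in scaling, -0.49 without replicate 3 of both groups and -0.49 to -0.36 with 1 array left out, and the 2 chaperone rises became 1 with the mean of probes and 0 with spike-in scaling. With a call on at least 1 side, signs turned with quantile normalization for Psma2 (-0.35), Psmc2 (-0.025) and Psmd2 (-0.22) and in the deposited table for Psma2 (-0.35), Psmc2 (-0.032) and Psmd2 (-0.22). With spike-in scaling they so turned for Psma2 (-0.59), Psmb1 (-0.58), Psmb6 (-0.076), Psmc2 (-0.35), Psmd10 (-0.16), Psmd2 (-0.68), Psme3ip1 (-0.58), Tap1 (-0.26) and Irf1 (-0.057). Fitting only the 8 arrays, with no block, called Psma7 (-0.23, adjusted p = 0.0133) and left Adrm1 at an adjusted p of 0.0508. With the replicate block on those 8 arrays both Psma7 (adjusted p = 0.0183) and Adrm1 (-0.18, adjusted p = 0.0477) were called, and no other call of a member differed from the fit of 12 arrays. A replicate block over all 12 arrays ended that of Psma4 (adjusted p = 0.0622).

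For LPS_IFNg_emodin against control, the median over the 48 genes (0.58) was 0.23 with quantile normalization, 0.38 with detected probes, 0.44 with normexp, 0.22 in the deposited table and 0.43 without the male-labelled controls, and the 3 falls became 9, 6, 5, 10 and 6. The constitutive median (0.64) was 0.23, 0.44 and 0.22 with quantile normalization, detected probes and the deposited table, with 5, 2 and 6 falls, and 2 falls with normexp and 2 without the male-labelled controls. The inducible median (1.36) was 0.94, 1.16 and 0.93 under the same settings and 0.82 with only probes detected on all arrays, with 1 fall under quantile normalization and 1 in the deposited table. The chaperone median (-0.12) was -0.32 with detected probes and -0.33 without the male-labelled controls. With a call on at least 1 side, signs turned with quantile normalization for Psmb10 (-0.47), Psmb3 (-0.40), Psmb5 (-0.55), Psmb8 (-0.074), Psmc1 (-0.095) and Psmc3 (-0.43), with normexp for Psmb8 (-0.0087), and in the deposited table for Psmb10 (-0.48), Psmb3 (-0.42), Psmb5 (-0.56), Psmb8 (-0.080), Psmc1 (-0.11), Psmc3 (-0.40) and Psmc5 (-0.20).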

Other observations

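Several linked genes outside the naming rule, picked after their values were seen, also differed between the groups. Ubb and Rps27a, both of which encode ubiquitin, were higher in LPS_IFNg_emodin than in LPS_IFNg cells by 0.58 and 0.85 (limma adjusted p = 8.69e-06 and 1.81e-06). With spike-in scaling 1 gene of the 10 ubiquitin and ubiquitin-like genes rose and 5 fell, where 9.28% of all genes were called up and 65.5% down and their median was -0.67. Akirin2, which takes part in bringing proteasomes into the nucleus, was 0.66 ± 0.06 higher with emodin (limma adjusted p = 1.88e-06), and Ddi2, the protease that activates Nfe2l1, was 1.02 ± 0.11 higher with emodin (limma adjusted p = 3.61e-06) and 0.71 lower in LPS_IFNg than in control cells. Sem1, the smallest lid subunit, which bears no matching symbol, fell by 0.46 ± 0.08 in LPS_IFNg against control (limma adjusted p = 0.000384) while 30 of 31 constitutive subunits rose.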
